A study of Mus musculus with 21 samples.

Results

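The genes described here are 9 members of the MHC class I presentation pathway, namely the heavy chains H2-K1 and H2-D1, their light chain B2m, the peptide transporter subunits Tap1 and Tap2, the loading chaperone Tapbp, the immunoproteasome subunits Psmb8 and Psmb9, and the transcriptional activator Nlrc5. They were listed by symbol, and the choice was made with earlier results of these data known. All 9 are present among the 23869 genes of the epithelial tables, the 21170 genes of the fibroblast tables and the 20004 genes held by both. Expression was measured by 3'SAGE-seq, which counts short sequence tags taken close to the 3' end of polyadenylated RNA, in lung cells sorted from C57BL/6 mice. Every mouse carried a Col1a2-GFP transgene, in which the promoter of a collagen gene drives green fluorescent protein in fibroblasts. Epithelial cells were live cells negative for the 4 lineage markers CD31, CD45, CD146 and Ter119, positive for Epcam and negative for GFP. For E18.5 epithelium no GFP gate is mentioned. Fibroblasts were live cells negative for the lineage markers and for Epcam and positive for GFP, so the fibroblast libraries describe cells in which the Col1a2 promoter was active. There were 2 libraries at each of embryonic day 18.5 (E18.5) and postnatal days 0.5, 2, 7 and 28 (P0.5, P2, P7, P28) in each cell type, and 1 fibroblast library at P56. Replicates are only numbered in the labels, so the p-values measure only how far these samples spread, and that spread may be technical.

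MHC class I molecules display short peptides from inside the cell on its surface, where CD8 T cells and natural killer cells read them. Proteasomes cut proteins into peptides, and in the immunoproteasome Psmb8 and Psmb9 replace constitutive catalytic subunits. The Tap1 and Tap2 proteins form a pump that moves peptides into the endoplasmic reticulum, where tapasin, the product of Tapbp, holds the pump and an empty heavy chain together until a peptide binds. B2m is needed for the folded heavy chain to reach the surface. Interferons, and interferon gamma above all, raise the transcription of most of these genes, in part through Nlrc5, which binds no DNA itself and acts on the X and Y box elements of class I promoters.

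Of these genes, 7 lie within the MHC region, and their arrangement is shown here because neighbours share regulatory sequence. In the GENCODE M21 annotation of GRCm38, H2-K1 is at chr17:33996017-34000347, Tapbp at chr17:33915899-33929292 and H2-D1 at chr17:35262730-35267499. Psmb9, Tap1, Psmb8 and Tap2 stand next to each other in chr17:34181987-34216321, with Psmb9 and Tap1 read in opposite directions from overlapping 5' ends. B2m is at chr2:122147686-122153083 and Nlrc5 at chr8:94434356-94527272.

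The promoters of H2-K1, H2-D1 and B2m are printed because they carry the same pair of elements in the same spacing. RefSeq windows (GRCm38.p6) of 250 bases before to 50 bases after the start were matched for 7 of the 9 genes, all but Tap2 and Nlrc5, and 4 motifs were searched on both strands. These were a kappaB-like motif GGGNNTTCC, an interferon response-like motif GAANNGAAA, the X2-like letters TGACG and the Y-like letters ATTGG, a reversed CCAAT box. The motifs do not overlap in the stretches below, which end upstream of the start. Each is written 5′ to 3′ on the gene's strand, and capitals mark the matches, with those on the opposite strand shown as their complement (TTTCACTTC for the interferon response-like motif, CCAAT for the Y-like one). H2-K1 is read from chr17:34000355-34000462 on the minus strand, H2-D1 from chr17:35262919-35263049 on the plus strand and B2m from chr2:122147605-122147642 on the plus strand.
H2-K1: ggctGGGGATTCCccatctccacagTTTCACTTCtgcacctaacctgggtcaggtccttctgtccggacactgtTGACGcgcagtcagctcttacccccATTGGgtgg
H2-D1: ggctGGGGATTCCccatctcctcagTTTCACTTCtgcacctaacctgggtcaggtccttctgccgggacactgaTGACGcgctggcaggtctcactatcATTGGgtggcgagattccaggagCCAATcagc
B2m: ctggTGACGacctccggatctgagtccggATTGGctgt

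In all 3 promoters 20 bases separate the X2-like and the Y-like letters. An X2-like match followed by a Y-like match within 5 to 40 bases was present in 306 of 27025 promoter windows (1.13%), among them H2-K1, H2-D1 and B2m and none of the other 4 genes with a window. RefSeq and GENCODE starts can differ. The windows of H2-D1, Tapbp (chr17:33919228-33919527) and Psmb8 (chr17:34197945-34198244) lie within the GENCODE gene, so a missing pair speaks only for the window searched. For H2-K1 2 windows were listed, and the first was used. The kappaB-like letters occurred in 5.72% of all windows, the interferon response-like letters in 7.56%, the X2-like letters in 21% and the Y-like letters in 37.9%. H2-K1 and H2-D1 each held 1 kappaB-like and 1 interferon response-like match, and their windows were identical at 88.3% of 239 aligned bases. The windows of Tap1 and Psmb9 share 275 bases, since these genes start back to back. That of Psmb8 held none of the 4 motifs, which says only that these letters are not in this window.

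**Figure D1:**
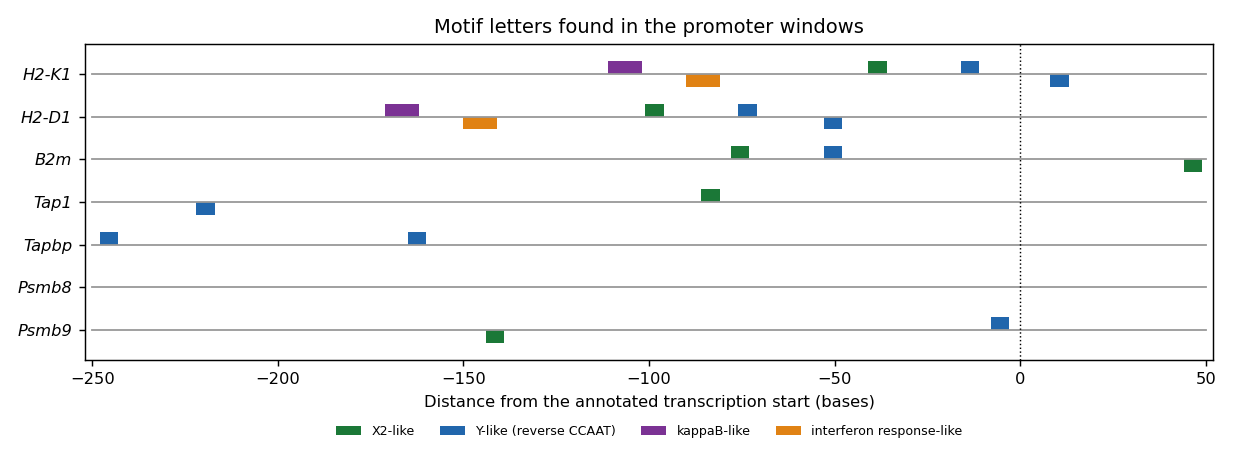
Motif matches in the promoter windows of the 7 genes with a RefSeq window, by distance in bases from the annotated transcription start (dotted line). Blocks above a line are on the gene's strand and blocks below it on the opposite strand; H2-K1 and H2-D1 show the same order of 4 elements, and B2m shares the X2-like and Y-like pair.

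Epithelial libraries held 2282124 to 5602529 recovered reads and fibroblast libraries 2146071 to 5729829, and a count of 0 allows up to 3 reads, or 0.403 to 1.37 value units, for counting error only. Epcam was at 45.3 to 337 CPM in the 10 epithelial libraries and 0 to 0.394 CPM in the 10 fibroblast libraries of the shared stages, and Col1a2 was at 3.17 to 59.6 and 1202 to 3251 CPM, on the joint scale explained below. The endothelial gene Pecam1 (CD31) did not exceed 2.12 CPM in any of these 20 libraries. Other endothelial markers were higher. By mean on the joint scale Esam was the highest of them in the epithelium, at 123 to 197 CPM, and Ramp2 in fibroblasts, at 13.4 to 23.3 CPM. The 12 listed endothelial markers summed to 139 to 224 value units in the epithelium. In fibroblasts, P56 included, the 11 in the tables summed to 21 to 40.3. The part of endothelial RNA was not tested. The leukocyte gene Ptprc (CD45) reached 20.4 CPM in the epithelium and 7.09 CPM in fibroblasts. Levels are compared only within a gene, since tag yield differs between genes. In bulk libraries, fewer cells of a type and less RNA per cell cannot be told apart. Of the 20-base words in the last 300 bases of H2-K1, 26.7% also occur in other genes, most often in H2-D1 (19.2%), so the split of reads between these heavy chains is uncertain. Of those of H2-D1, 51.2% occur elsewhere, spread over 1147 other genes, so tags from its 3' end are uncertain for sequence shared well beyond the heavy chains. The share was at most 1.42% for the other 7 genes. B2m and Psmb8 overlap genes of the opposite strand (Patl2 and Gm20496) at their 3' ends, and whether the counting used strand is not stated in the labels.

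From before birth to P28, 5 of the 9 presentation genes rose in both cell types and 2 more in 1 of them. Of the 8 genes that passed the filter on low values, 6 were higher at P28 than at E18.5 in the epithelium and none lower, while 24.9% of all genes tested passed the threshold. In fibroblasts 6 of 8 were higher and none lower, against 33.6% of all genes. The median change of the 8 was 1.5 on the log2 scale in the epithelium, where the median over all genes was 0.03, and 1.36 in fibroblasts, where it was 0.01. H2-K1, H2-D1, B2m, Psmb8 and Tap2 rose in both, Tap1 in the epithelium and Tapbp in fibroblasts. Nlrc5 did not pass the filter in either cell type. Changes are given in log2 units of the deposited value plus 1, ± SE, with p-values from limma adjusted over all genes tested and a threshold of 0.05, and means are given with their SD.

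H2-K1, a classical heavy chain that presents peptides to CD8 T cells, was present in every epithelial library. Its deposited values in the epithelium were 34.4 and 27.5 at E18.5, 44.8 and 36.2 at P0.5, 42.4 and 44.2 at P2, 99.2 and 67.1 at P7, and 87.3 and 92.2 at P28. All 4 libraries of P7 and P28 lay above all 6 earlier libraries. In fibroblasts the values were 2.81 and 1.71 at E18.5, 4.09 and 4.49 at P0.5, 3.55 and 3.84 at P2, 5.25 and 4.18 at P7, 48.1 and 39.9 at P28, and 135 at P56. The 8 fibroblast libraries up to P7 thus lay between 1.71 and 5.25, from 4 to 20 reads each, and the P28 and P56 libraries stood far above them, with 163, 100 and 1009 reads. The epithelial change from E18.5 to P28 was 1.51 ± 0.23 (adjusted p = 0.000292) and the fibroblast change 3.80 ± 0.36 (adjusted p = 1.91e-07).

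H2-D1, the second classical heavy chain of this strain, rose by smaller steps. In the epithelium it was 8.43 and 8.84 at E18.5, 9.91 and 9.9 at P0.5, 10.9 and 9.56 at P2, 15.9 and 15.9 at P7, and 27.4 and 28.2 at P28. The P7 pair stood above every earlier library and the P28 pair above P7. In fibroblasts it was 3.65 and 4.27 at E18.5, 6.92 and 10.11 at P0.5, 6.04 and 5.76 at P2, 4.99 and 6.68 at P7, 12.4 and 9.17 at P28, and 23.5 at P56. Here the P0.5 and P28 groups overlapped, while E18.5 and P28 did not. The change from E18.5 to P28 was 1.58 ± 0.28 in the epithelium (adjusted p = 0.000839) and 1.24 ± 0.38 in fibroblasts (adjusted p = 0.0172); the fibroblast call was lost without E18.5 replicate 1 (1.15, adjusted p = 0.0745) or P28 replicate 1 (1.04, adjusted p = 0.117).

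B2m, the light chain shared by all class I molecules, moved upward at each stage of both series of group means. In the epithelium it was 1.62 and 2.21 at E18.5, 2.57 and 2.26 at P0.5, 6.84 and 7.25 at P2, 9.53 and 15.1 at P7, and 27 and 36.3 at P28. In fibroblasts it was 7.02 and 5.12 at E18.5, 10.4 and 10.5 at P0.5, 16 and 15.9 at P2, 16.3 and 22.5 at P7, 37.8 and 52.6 at P28, and 48.2 at P56. No epithelial library of a later stage fell below one of an earlier stage, and the same held in fibroblasts up to P28. Epithelial B2m values at E18.5 and P0.5 rest on few reads. There 1 read was worth 0.324 and 0.316 units at E18.5 and 0.367 and 0.283 units at P0.5. The epithelial mean went from 1.92 ± 0.415 to 31.7 ± 6.55 (n = 2 each), a change of 3.48 ± 0.36 (adjusted p = 1.31e-05). The fibroblast mean went from 6.07 ± 1.35 to 45.2 ± 10.5 (n = 2 each), a change of 2.70 ± 0.31 (adjusted p = 1.6e-06).

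Both subunits of the peptide transporter had their highest epithelial values at P28. Tap1, the first subunit, in the epithelium was 1.3 and 5.68 at E18.5, 1.47 and 1.98 at P0.5, 4.1 and 0.989 at P2, 6.35 and 6.16 at P7, and 9.65 and 12.4 at P28. Its E18.5 pair, with 4 and 18 reads, lay further apart than each of the 4 other pairs, and the P28 pair stood above every other library. The change from E18.5 to P28 was 1.61 ± 0.55 (adjusted p = 0.0449), a call that did not hold without E18.5 replicate 1 (0.84, adjusted p = 0.361), P28 replicate 1 (1.77, adjusted p = 0.123) or P28 replicate 2 (1.44, adjusted p = 0.212), nor with edgeR (adjusted p = 0.0629), DESeq2 (0.116), a pseudocount of 0.5 (0.0581) or no filter (0.115). In fibroblasts Tap1 was 3.93 and 2.56 at E18.5, 2.2 and 5.99 at P0.5, 1.78 and 2.19 at P2, 4.73 and 6.68 at P7, 9.15 and 5.58 at P28, and 6.98 at P56. The fibroblast groups overlapped in part, and the difference from E18.5 to P28 was 0.96 ± 0.48 (adjusted p = 0.132).

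Tap2, the other half-transporter, dipped at birth in the epithelium. Its epithelial values were 59.0 and 34.4 at E18.5, 25 and 18.4 at P0.5, 62.4 and 57.3 at P2, 61.1 and 48.1 at P7, and 84.2 and 98.2 at P28. Both P0.5 libraries lay below all 8 others and both P28 libraries above them. Fibroblast values were 84.0 and 55.9 at E18.5, 39.6 and 40.8 at P0.5, 45.1 and 39.8 at P2, 53.3 and 80.6 at P7, 135 and 99.7 at P28, and 54.0 at P56. The fibroblast pairs at P0.5 and P2 were again the lowest and the P28 pair the highest. From E18.5 to P28 Tap2 rose by 1.0 ± 0.26 in the epithelium (adjusted p = 0.0131) and by 0.75 ± 0.25 in fibroblasts (adjusted p = 0.029). These calls were lost without the epithelial libraries E18.5 replicate 2 (0.61, adjusted p = 0.144) or P28 replicate 2 (0.89, adjusted p = 0.109), or without fibroblast E18.5 replicate 2 (0.46, adjusted p = 0.287) or P28 replicate 1 (0.53, adjusted p = 0.235), and in fibroblasts also with no filter (adjusted p = 0.12).

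Tapbp, which encodes tapasin, kept a narrow range in the epithelium. Its 10 epithelial values ran from 29.7 to 47.1, with 35.7 and 35.7 at E18.5 and 47.1 and 36.6 at P28, a difference of 0.21 ± 0.23 (adjusted p = 0.55). In fibroblasts it was 17.1 and 15.8 at E18.5, 16.4 and 16.8 at P0.5, 18.5 and 9.87 at P2, 13.4 and 12.5 at P7, 36.9 and 46.3 at P28, and 48.7 at P56. The 3 libraries of P28 and P56 lay above all 8 earlier fibroblast libraries. The fibroblast change from E18.5 to P28 was 1.28 ± 0.31 (adjusted p = 0.0032).

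Psmb8, the immunoproteasome subunit that replaces Psmb5, had a dip at birth in the epithelium and a late step in both cell types. Its epithelial values were 156 and 158 at E18.5, 82.6 and 65.9 at P0.5, 169 and 148 at P2, 173 and 162 at P7, and 413 and 479 at P28. The P0.5 pair lay below all others, the E18.5, P2 and P7 libraries fell in 1 band from 148 to 173, and the P28 pair stood above that band. Fibroblast values were 30.6 and 19.6 at E18.5, 21.4 and 17.2 at P0.5, 32.0 and 15.1 at P2, 23.9 and 13.4 at P7, 161 and 161 at P28, and 58.0 at P56. The 8 libraries up to P7 overlapped from stage to stage and none came near the P28 pair. The change from E18.5 to P28 was 1.49 ± 0.18 in the epithelium (adjusted p = 4.22e-05) and 2.67 ± 0.33 in fibroblasts (adjusted p = 5.4e-06).

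Psmb9, the subunit that replaces Psmb6, and Nlrc5 had few reads. Psmb9 ranged from 0.839 to 8.11 in the epithelium (3 to 22 reads) and from 0 to 5.98 in fibroblasts (0 to 31 reads), and its differences from E18.5 to P28 were 1.03 ± 0.49 (adjusted p = 0.143) and 1.44 ± 0.64 (adjusted p = 0.09). Nlrc5 had no read in the 6 epithelial libraries up to P2. It had 2 and 0 reads at P7 and 1 and 6 reads at P28. In fibroblasts it had 12 reads in P28 replicate 1 and 0 in the other 10 libraries, P28 replicate 2 included. At this depth no stage difference in Nlrc5 was detectable, and it entered no test.

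**Figure D2:**
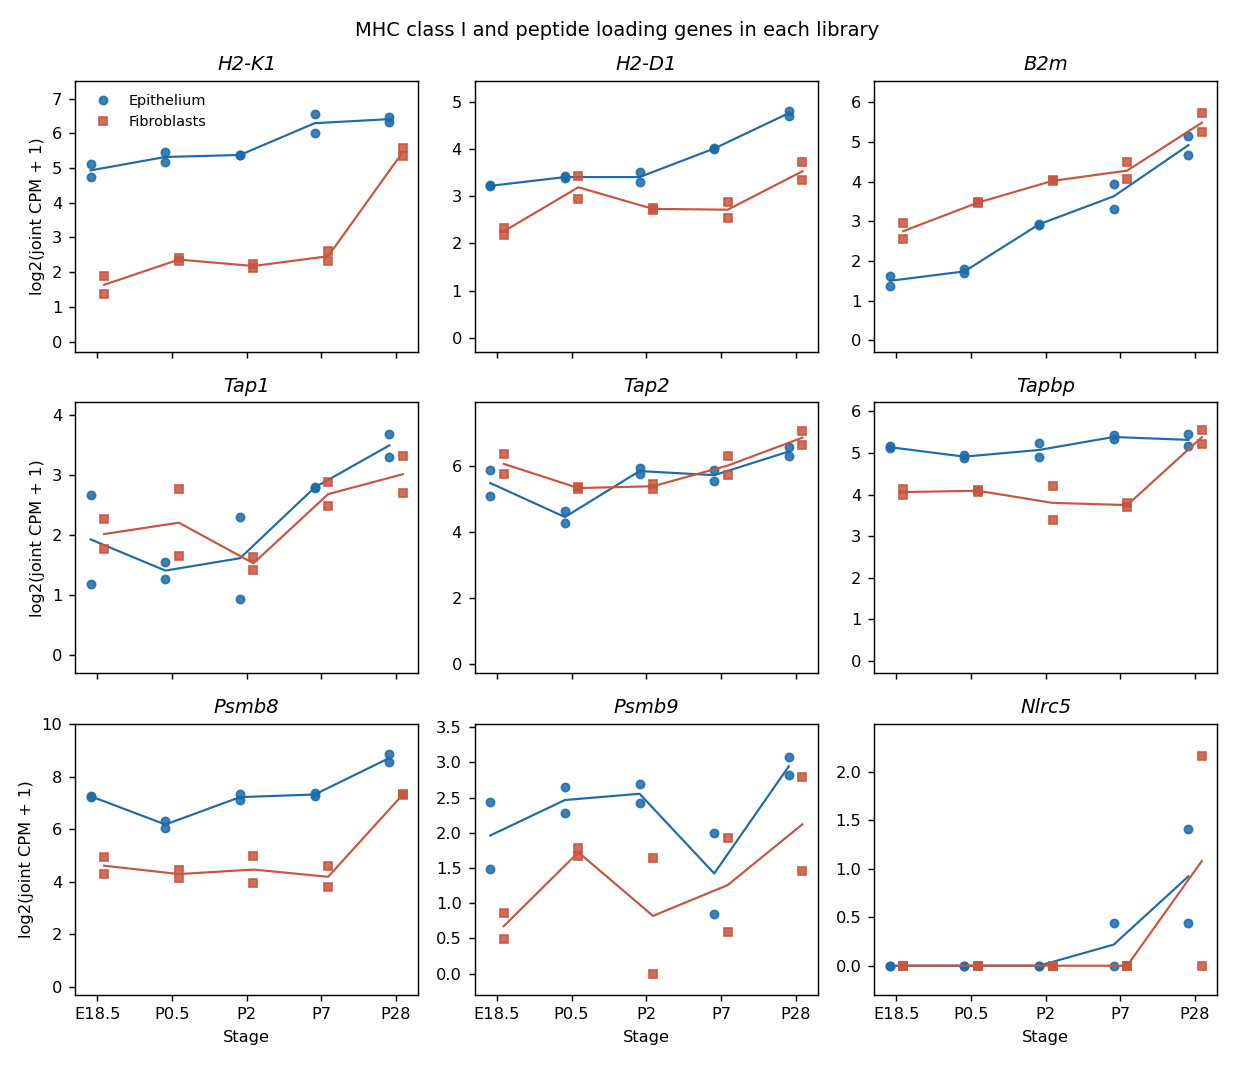
Level of each of the 9 genes by stage, as log2(joint CPM + 1), with 1 point per library and lines through the group means (circles, epithelium; squares, fibroblasts; scales differ between panels). H2-K1, Tapbp and Psmb8 in fibroblasts stay low up to P7 and step up at P28, whereas B2m is lower in the epithelium at every stage mean.

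Step by step, the epithelial genes split between an early dip and later rises. From E18.5 to P0.5, across birth, 2 of 8 fell, Psmb8 by 1.08 ± 0.18 (adjusted p = 0.00168) and Tap2 by 1.04 ± 0.26 (adjusted p = 0.0182), and none rose, while 14.3% of all genes passed the threshold. From P0.5 to P2, 3 rose and none fell, against 8.82% of all genes. Psmb8 regained 1.09 ± 0.18 (adjusted p = 0.00395) and Tap2 1.44 ± 0.26 (adjusted p = 0.00676), and B2m rose by 1.24 ± 0.36 (adjusted p = 0.0496), which did not hold without any 1 of the 4 libraries (adjusted p from 0.121 to 0.227), nor with edgeR (adjusted p = 0.0639), DESeq2 (0.119), TMM scaling (0.0554), a pseudocount of 5 (0.0911) or no filter (0.091). All 3 of these calls were lost without P0.5 replicate 2, with Psmb8 at 0.93 (adjusted p = 0.0646) and Tap2 at 1.23 (adjusted p = 0.0917). That library also decided Tap2 across birth (-0.83, adjusted p = 0.17), as did E18.5 replicate 1 (-0.66, adjusted p = 0.167).

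From P2 to P7 the heavy chain H2-K1 rose by 0.90 ± 0.23 (adjusted p = 0.0463) as the only 1 of 8, when 3.71% of all genes passed. It no longer passed without P2 replicate 1 (0.87, adjusted p = 0.169), P2 replicate 2 (0.93, adjusted p = 0.101) or P7 replicate 1 (0.62, adjusted p = 0.346), or with no filter (adjusted p = 0.0962). From P7 to P28, 2 of 8 rose, against 7.28% of all genes: Psmb8 by 1.41 ± 0.18 (adjusted p = 0.000158) and B2m by 1.31 ± 0.36 (adjusted p = 0.0421). The B2m call was lost without any 1 of the 4 libraries, with changes from 1.01 to 1.62 and adjusted p from 0.0676 to 0.327, and with a pseudocount of 0.5 (adjusted p = 0.0568) or no filter (0.0727). H2-D1 differed by 0.77 ± 0.28 (adjusted p = 0.129) and Psmb9 by 1.56 ± 0.49 (adjusted p = 0.072), and Psmb9 passed without P7 replicate 1 (2.15, adjusted p = 0.049).

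In fibroblasts the stepwise calls up to P28 all fell between P7 and P28. From E18.5 to P0.5, P0.5 to P2 and P2 to P7, limma called 0 of 8 genes, while 15.4%, 16.9% and 6.64% of all genes passed. At an unadjusted p under 0.05 there were 3, 0 and 2 of the 8, against 28.8%, 30% and 20.4% of all genes. With edgeR 1, 0 and 0 were called, and DESeq2 called none in any of the 3 steps. The gene edgeR called was Tap2 across birth, at -0.78 (adjusted p = 0.0485), where limma gave -0.75 ± 0.25 (adjusted p = 0.0519) and, without E18.5 replicate 2, -1.04 (adjusted p = 0.0364). From P7 to P28, 5 of 8 rose and none fell, against 20.8% of all genes. Psmb8 rose by 3.1 ± 0.33 (adjusted p = 1.83e-06), H2-K1 by 2.98 ± 0.36 (adjusted p = 7.92e-06) and Tapbp by 1.60 ± 0.31 (adjusted p = 0.000899). B2m rose by 1.18 ± 0.31 (adjusted p = 0.00945) and Tap2 by 0.81 ± 0.25 (adjusted p = 0.029). Both were lost without P7 replicate 1 (B2m 0.95, adjusted p = 0.0921; Tap2 0.52, adjusted p = 0.27), B2m also without P28 replicate 2 (0.94, adjusted p = 0.105) and Tap2 without P28 replicate 1 (0.60, adjusted p = 0.238) or with no filter (adjusted p = 0.129).

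**Figure D3:**
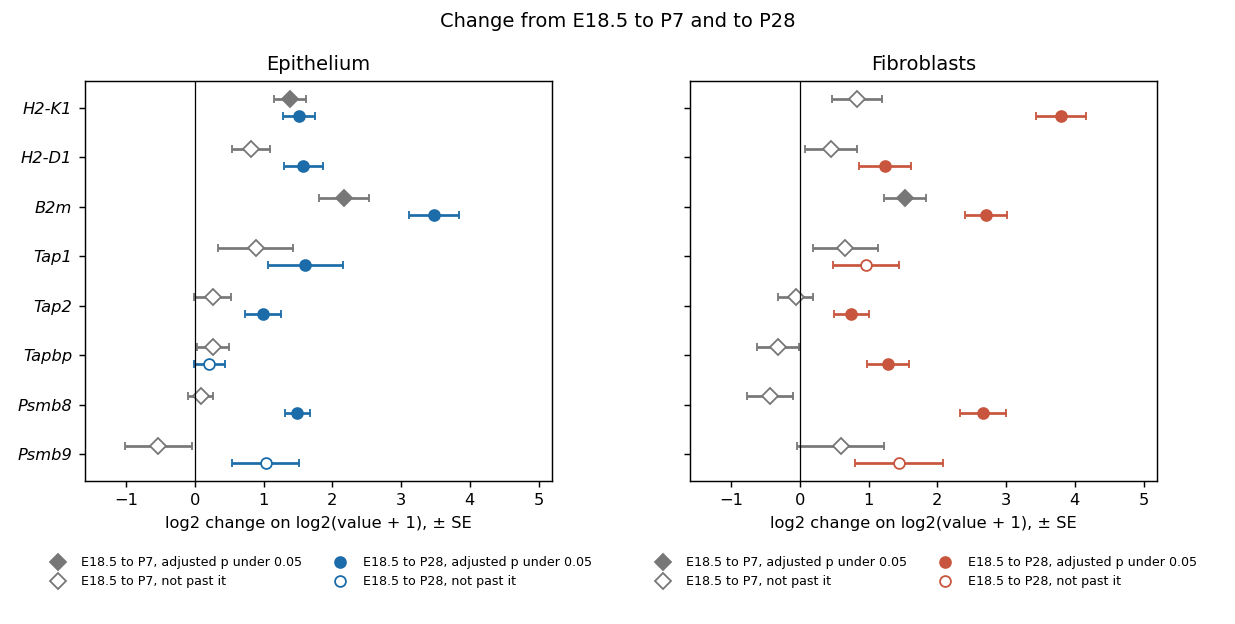
Change of the 8 tested genes from E18.5 to P7 (diamonds) and from E18.5 to P28 (circles) in each cell type, in log2 units with SE bars; filled symbols passed an adjusted p of 0.05. In fibroblasts B2m alone passed by P7, and 6 genes passed by P28.

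Stopping the course at P7, a choice made after seeing the values, left fewer calls. From E18.5 to P7, 2 of 8 rose in the epithelium, against 20.4% of all genes: B2m by 2.17 ± 0.36 and H2-K1 by 1.38 ± 0.23 (adjusted p = 0.000914 for each). In fibroblasts 1 of 8 rose, B2m by 1.53 ± 0.31 (adjusted p = 0.0016), also against 20.4% of all genes. Psmb8 differed by 0.09 ± 0.18 in the epithelium and by -0.43 ± 0.33 in fibroblasts over that span, and neither passed (adjusted p = 0.791 and 0.4).

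Markers of other cells changed over the same stages. The 20 leukocyte markers, 18 of them in the epithelial tables, summed to 203 to 490 at E18.5, 284 to 310 at P0.5, 197 to 868 at P2, 43.6 to 63.3 at P7 and 2473 to 2494 at P28 in the epithelium, where 17 of 18 were above 0 in both libraries. Ptprc, the gene of the gated CD45, was at 0 at P0.5 and P7 and at 16.8 ± 6.33 (n = 2) at P28. The part of leukocyte RNA in the epithelial P28 values was not tested. The 8 fibroblast markers summed to 372 to 396 at E18.5, 391 to 465 at P0.5, 656 to 882 at P2, 159 to 169 at P7 and 2298 to 2380 at P28 in the epithelium, with 5 to 8 of 8 above 0. Vim, an intermediate filament gene, made up nearly all of the P28 sum (a mean of 2309 against 290.2 at E18.5), while Col1a2 was at 18.6 at E18.5 and 3.9 at P28. Erythroid markers in the epithelium summed to 799 to 2878 at E18.5, 4097 to 6174 at P0.5, where Psmb8 and Tap2 were lowest, 2059 to 7395 at P2, 55.5 to 304 at P7 and 1155 to 1366 at P28. Mesothelial markers went from 7401 to 7704 at E18.5 to 854 to 987 at P28 there. Most of this sum was the keratin gene Krt19, at a mean of 2815 CPM over the 10 epithelial libraries. Msln had a mean of 152 CPM, and Rspo1, Lrrn4, Upk3b and Wt1 had means of 0.337 CPM or less. The part of fibroblast, erythroid and mesothelial RNA in the epithelial values was not tested. The leukocyte markers, 14 of the 20 in the fibroblast tables, summed to 0 to 3.94 at P7, 72.9 to 206 at P28 and 2.28 at P56 in fibroblasts. Ptprc was at 4.48 ± 3.82 (n = 2) at P28 and 0.134, or 1 read, at P56 there. The part of leukocyte RNA in the fibroblast P28 values was not tested. From P28 to P56 H2-K1 rose while Psmb8 and Tap2 fell. Erythroid markers summed to 93.7 to 181 at P7, 657 to 2876 at P28 and 0.134 at P56 in fibroblasts, and their part in these values was not tested.

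**Figure D4:**
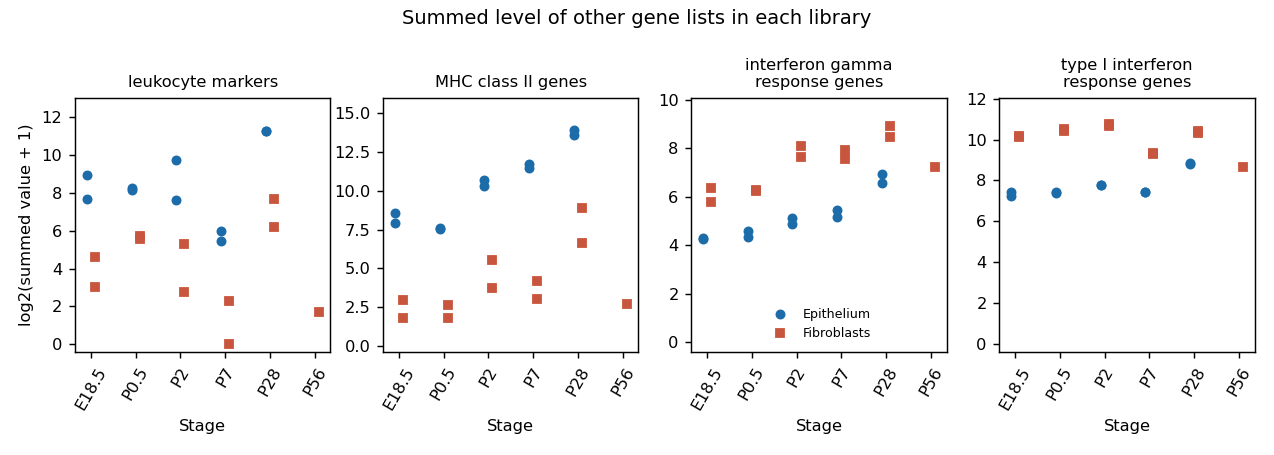
Summed deposited value of 4 other gene lists in each library, as log2(sum + 1), by stage (circles, epithelium; squares, fibroblasts). Leukocyte markers are lowest at P7 and highest at P28 in the epithelium, and in fibroblasts the P56 library is low for leukocyte markers and MHC class II genes.

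Between P28 and the single P56 library the fibroblast genes differed in both directions, and the share of them called was close to that of all genes. H2-K1 rose by 1.61 ± 0.45 (adjusted p = 0.0102), Psmb8 fell by 1.46 ± 0.41 (adjusted p = 0.011) and Tap2 fell by 1.09 ± 0.31 (adjusted p = 0.0123), so that 1 of 8 rose and 2 fell while 31.2% of all genes passed. H2-D1 differed by 1.07 ± 0.47 (adjusted p = 0.0904), and passed with TMM-scaled values (1.27, adjusted p = 0.0447). The other 4, B2m, Tap1, Tapbp and Psmb9, differed by between -0.03 and 0.23 (adjusted p of 0.684 or more). The P56 group is a single library, assumed in the fit to vary like the other fibroblast groups; without P28 replicate 1 the calls for Psmb8 (-1.45, adjusted p = 0.0601) and Tap2 (-0.87, adjusted p = 0.094) were lost, and without P28 replicate 2 those for Psmb8 (-1.46, adjusted p = 0.0572) and H2-K1 (1.47, adjusted p = 0.053). With no filter those for Tap2 (adjusted p = 0.0787) and Psmb8 (0.111) were lost. All genes had a median change of -0.12 here and 0.06 with TMM scaling, a shift of 0.18, and the calls over all genes went from 1455 higher and 2278 lower to 1894 and 1815. The 8 fibroblast markers summed to 39969 to 39971 at P28 and to 11978 at P56. The 10 most abundant genes held 17.2 and 17.4% of reads at P28 and 11.5% at P56. The part of these differences in the changes from P28 to P56 was not tested.

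**Figure D5:**
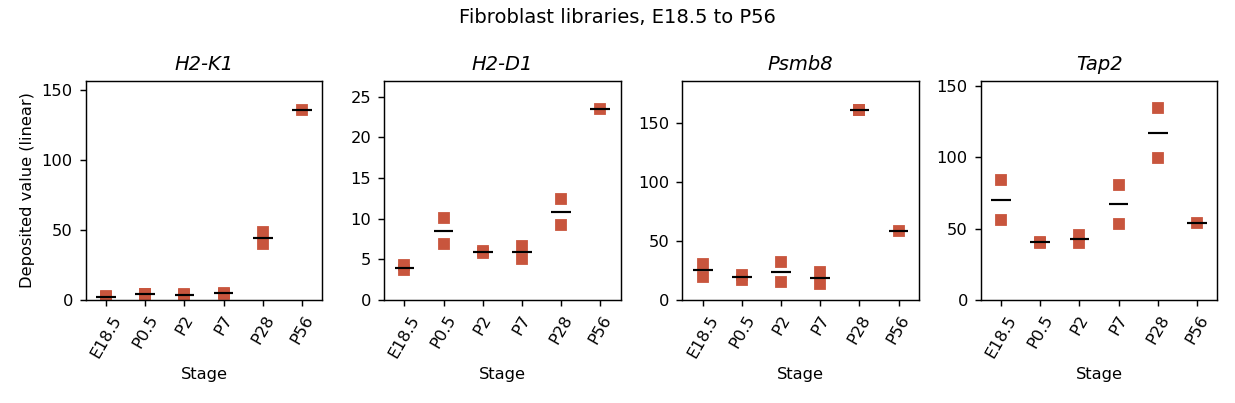
Deposited values (linear scale) of H2-K1, H2-D1, Psmb8 and Tap2 in the 11 fibroblast libraries by stage, with 1 square per library and a line at the group mean (1 library at P56). H2-K1 goes from 39.9 and 48.1 at P28 to 135 at P56, whereas Psmb8 goes from 161 in both P28 libraries to 58.0.

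The cell types were compared on recovered reads of both, scaled together to CPM (joint CPM), over the 5 shared stages. Averaged over these stages, 5 of 8 genes were higher in the epithelium and 2 in fibroblasts, while 62.4% of all genes tested passed. H2-K1 was 2.84 ± 0.12 log2 units higher in the epithelium (adjusted p = 7.91e-15), Psmb8 2.36 ± 0.13 (adjusted p = 7.65e-13), Tapbp 0.95 ± 0.12 (adjusted p = 3.17e-07), Psmb9 0.95 ± 0.26 (adjusted p = 0.00307) and H2-D1 0.88 ± 0.13 (adjusted p = 7.53e-06). B2m went the other way, with an epithelial minus fibroblast difference of -1.06 ± 0.14 (adjusted p = 1.32e-06). So did Tap2, at -0.34 ± 0.12 (adjusted p = 0.0218), a call lost when any 1 of 6 libraries was left out (epithelial E18.5 replicate 2, P0.5 replicate 2 and P7 replicate 2, and fibroblast E18.5 replicate 1, P7 replicate 2 and P28 replicate 1; -0.26 to -0.31, adjusted p up to 0.0634). Tap1 differed by -0.04 ± 0.23 (adjusted p = 0.884).

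The heavy chain and its light chain were thus higher in different cell types. H2-K1 ran from 25.9 to 93.6 CPM with a median of 41.6 in the epithelium and from 1.61 to 47.2 CPM with a median of 3.97 in fibroblasts. B2m ran from 1.59 to 34.7 CPM with a median of 6.59 in the epithelium and from 4.84 to 52 CPM with a median of 15.2 in fibroblasts. Within a stage neither gene's libraries overlapped between the cell types, with the epithelium above for H2-K1 and below for B2m, although the B2m differences at P7 (-0.65 ± 0.32, adjusted p = 0.129) and P28 (-0.57 ± 0.32, adjusted p = 0.178) did not pass.

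At E18.5, 4 of 8 genes were higher and 1 lower in the epithelium, against 38.2% of all genes. H2-K1 differed by 3.29 ± 0.27, Psmb8 by 2.64 ± 0.29, Tapbp by 1.08 ± 0.26 and H2-D1 by 0.96 ± 0.30, and B2m by -1.25 ± 0.32 (adjusted p from 2.35e-09 to 0.0143). H2-D1 did not hold there without E18.5 replicate 1 (0.97, adjusted p = 0.0549) or 2 (0.96, adjusted p = 0.0583) of the epithelium or fibroblast E18.5 replicate 1 (0.89, adjusted p = 0.0741), or with DESeq2 (adjusted p = 0.0628). Tap2 (-0.58 ± 0.28, adjusted p = 0.109) passed without epithelial E18.5 replicate 1 (-0.99, adjusted p = 0.0183) or fibroblast E18.5 replicate 2 (-0.88, adjusted p = 0.0452). At P0.5, 3 were higher and 2 lower (41% of all genes), namely H2-K1, Psmb8 and Tapbp against B2m and Tap2. Tapbp (0.82 ± 0.26) was lost there without any 1 of the 4 libraries (adjusted p up to 0.0768), and Tap2 (-0.88 ± 0.28) without epithelial P0.5 replicate 2 (-0.69, adjusted p = 0.14) or either fibroblast library (-0.90 and -0.86, adjusted p = 0.0589 and 0.0701). At P2 there were 4 higher and 1 lower (41% of all genes), the same direction for H2-K1, Psmb8, Tapbp and B2m, with Psmb9 added (1.73 ± 0.58, adjusted p = 0.0202). Psmb9 was lost without either epithelial library or fibroblast P2 replicate 1 (0.91 to 1.87, adjusted p up to 0.31), with edgeR (adjusted p = 0.0684) or with DESeq2 (adjusted p = 0.084).

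At P7 both heavy chains, tapasin and Psmb8 were higher in the epithelium. H2-K1 differed by 3.83 ± 0.27, Psmb8 by 3.13 ± 0.29, Tapbp by 1.64 ± 0.26 and H2-D1 by 1.29 ± 0.30, 4 higher and 0 lower of 8, against 35.5% of all genes, while Psmb9 differed by 0.17 ± 0.58 (adjusted p = 0.874). At P28, 3 were higher and 0 lower, against 38.1% of all genes: Psmb8 by 1.39 ± 0.29 (adjusted p = 0.000642), H2-D1 by 1.23 ± 0.30 (adjusted p = 0.00234) and H2-K1 by 0.94 ± 0.27 (adjusted p = 0.00849). The H2-K1 call at P28 was lost without epithelial P28 replicate 2 (0.87, adjusted p = 0.0613) or fibroblast P28 replicate 2 (0.82, adjusted p = 0.0709). Tapbp at P28 was 43.0 and 35.0 CPM in the epithelium and 36.2 and 45.7 CPM in fibroblasts, so the groups overlapped, with a difference of -0.06 ± 0.26.

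The change from E18.5 to P28 itself differed between the cell types for 3 of 8 genes, each with the larger change in fibroblasts, while 15.1% of all genes passed this interaction test. The epithelial minus fibroblast difference in change was -2.35 ± 0.39 for H2-K1 (adjusted p = 0.000218), -1.25 ± 0.42 for Psmb8 (adjusted p = 0.0465) and -1.14 ± 0.37 for Tapbp (adjusted p = 0.0396). H2-K1 passed under all 17 alternatives and leave-outs, with differences from -2.76 to -1.39 and adjusted p from 3.35e-05 to 0.00217. Psmb8 (adjusted p from 0.0206 to 0.198) and Tapbp (0.0261 to 0.133) failed in 11 of 17 each, Psmb8 without each of 7 of the 8 libraries of these groups (all but fibroblast E18.5 replicate 1; -0.93 to -1.39, adjusted p from 0.0653 to 0.198) and Tapbp without each of 7 (all but fibroblast P28 replicate 1; -0.98 to -1.29, adjusted p from 0.0523 to 0.133). H2-D1, B2m, Tap1, Tap2 and Psmb9 had differences in change from -0.46 to 0.69 that did not pass.

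Other genes of the pathway moved in part with these genes. Of the other class I heavy chains, 5 of 11 tested rose and none fell from E18.5 to P28 in the epithelium, with a median of 1.24, where 24.9% of all genes passed. H2-Q6 (2.91 ± 0.42), H2-L (2.51 ± 0.40), H2-Q7 (2.47 ± 0.49) and H2-T22 (1.29 ± 0.26) had the smallest p. Reads of these near copies cannot be assigned with certainty. A rise under a symbol, H2-L included, may hold reads of another heavy chain such as H2-D1, so the 5 rises may not be separate. In fibroblasts 5 of 9 rose, among them H2-Q5 (2.73 ± 0.55), H2-T22 (1.18 ± 0.28), H2-Q4 (2.50 ± 0.65) and H2-T10 (1.56 ± 0.43), with a median of 1.40, where 33.6% of all genes passed.

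Among the other loading and trimming genes, 4 of 10 rose in the epithelium, where 24.9% of all genes passed, and 4 of 9 in fibroblasts, where 33.6% did, so neither share stands far from that of all genes. The medians were 0.58 and 0.75. Hspa5, the general chaperone BiP of the endoplasmic reticulum, rose by 1.52 ± 0.25 and 1.95 ± 0.25, and Lnpep, an aminopeptidase of endosomes, by 0.68 ± 0.20 and 1.33 ± 0.21. Canx (calnexin) rose by 0.72 ± 0.17 in the epithelium and Sec61a1, a translocon subunit, by 0.75 ± 0.23 in fibroblasts. Tpp2, a cytosolic peptidase, rose by 0.80 ± 0.28 and 0.88 ± 0.33.

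No other proteasome gene on the lists passed over the whole course. Of 6 further immunoproteasome and activator genes (Psmb10, Psme1 to Psme4 and Pomp), limma called 0 in either cell type from E18.5 to P28, with 1 in each at an unadjusted p under 0.05 and medians of 0.22 and -0.03. It called 0 of the 14 constitutive 20S core subunits in either, with 1 in each at an unadjusted p under 0.05 and medians of 0.01 and -0.03. Over all genes 24.9% passed in the epithelium and 33.6% in fibroblasts, and 36% and 42.6% were at an unadjusted p under 0.05. From P7 to P28 in fibroblasts, 3 of the 14 core subunits fell, Psmb2 by 1.15, Psmb6 by 0.98 and Psmb1 by 0.68 on the log2 scale, a share close to the 20.8% of all genes that passed in that step. Between the cell types, Psme1, a subunit of the interferon-inducible PA28 activator, was 1.38 ± 0.19 higher in the epithelium (adjusted p = 1.94e-06) and Psme2, its partner, 0.43 ± 0.17 (adjusted p = 0.0305).

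Factors known to act on class I promoters changed for a few genes. In the epithelium 4 of 17 rose and 1 fell from E18.5 to P28, near the 24.9% of all genes that passed. Ciita, the class II activator related to Nlrc5, rose by 3.49 ± 0.45 from 3.02 ± 1.98 to 43.8 ± 20.4 (n = 2 each), the kappaB subunit gene Nfkb1 by 1.05 ± 0.22 and the interferon regulatory factor Irf1 by 0.88 ± 0.18, and Rfxank fell by 0.69 ± 0.24. In fibroblasts 2 of 17 rose and 1 fell, below the 33.6% of all genes: Irf1 rose by 2.88 ± 0.18 from 48.9 ± 7.07 to 365 ± 9.59 (n = 2 each), Nfkb1 rose by 2.65 ± 0.18, and Rfxank fell by 1.26 ± 0.34. Irf1 was at 231 ± 4.88 (n = 2) in fibroblasts at P0.5, when H2-K1 and Psmb8 were at their low level. The part of Irf1 in the changes of these genes was not tested.

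Some interferon response genes rose in each cell type, where 24.9% (epithelium) and 33.6% (fibroblasts) of all genes passed. Of the interferon gamma response genes, 3 of 6 tested rose in the epithelium (Cxcl10 by 4.47 ± 0.38, Cd274 by 3.62 ± 0.49 and Gbp5 by 1.88 ± 0.48) and 9 of 10 in fibroblasts (Cxcl10 by 6.53 ± 0.30, Gbp5 by 3.92 ± 0.45, Gbp2 by 4.0 ± 0.50 and Iigp1 by 1.17 ± 0.24, with the smallest p). Of the type I interferon response genes, 7 of 12 rose in the epithelium and 4 of 10 in fibroblasts, with Ifit3 at 3.29 ± 0.30 and 4.41 ± 0.52 and Isg15 at 2.69 ± 0.32 and 2.54 ± 0.46. Ifit3 in fibroblasts was at 3.12 ± 2.64 at P7 and 61.6 ± 6.51 at P28 (n = 2 each). From P7 to P28 in fibroblasts 8 of 10 type I and 6 of 10 gamma response genes rose, against 20.8% of all genes called. The leukocyte marker sums above rose over the same P7 to P28 step in both cell types, and their part in these lists was not tested.

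Averaged over the 5 stages, 8 of 11 interferon gamma response genes were lower in the epithelium and 1 higher, where 62.4% of all genes passed, with Iigp1 at -5.17 ± 0.21 and Gbp3 at -2.86 ± 0.22, whereas the heavy chain H2-K1 and Psmb8 were higher there. Of the type I response genes 5 of 10 were higher in the epithelium and 1, Ifitm3, lower.

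Across libraries the 8 tested genes tended to vary together, which describes shared stages as well as shared libraries. Over the 10 epithelial libraries the 28 pairwise Pearson correlations of log2(value + 1) had a median of 0.64, and 20 exceeded 0.5. The highest was 0.94 for H2-D1 and B2m and the lowest -0.11 for Tap1 and Psmb9. Over the 11 fibroblast libraries the median was 0.62, with 21 pairs above 0.5, from 0.14 for H2-D1 and Tap2 to 0.90 for H2-K1 and Tapbp. The genes outside the listed pathways most like the mean pattern of the 8, by correlation over the libraries of a cell type, were Acot7 (0.98), Nfic (0.97), Zc3h12a (0.97), Rel (0.97) and Odc1 (0.97) of 2992 candidates in the epithelium. They were Mettl7a1 (0.97), Pla2r1 (0.97), Aldh1a7 (0.97), Adra1a (0.96) and Hlf (0.96) of 3340 candidates in fibroblasts. Rel, a kappaB family subunit, was at 6.06 at E18.5 and 59.3 at P28 in the epithelium, and Hlf, a circadian output transcription factor, at 8.53 and 213 in fibroblasts (means of 2 libraries).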

How the data were processed

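Each library has 1 table of deposited values, a signal per gene in which whole tag counts are divided by 1 factor per library, as the deposited values themselves show: division by the smallest step gave whole reads for 100% of values, within 0.01 of a read. Bowtie2 2.2.5, R 3.4.0 and the build mm10 are named in the submitters' processing notes; the normalisation and the strand used in counting are not given in the sources used here. Stages were compared in limma 3.58.1 under R 4.3.3, with its prior variance allowed to depend on the mean level. It was run on log2(value + 1) of genes at 3 or more in at least 2 libraries, once over the 10 epithelial and once over the 11 fibroblast libraries, each leaving 5 residual degrees of freedom. Cell types were compared on recovered reads over the shared genes, TMM scaled to 1e6 (20 libraries, 10 residual degrees of freedom), because the cell types' tables may have been normalised separately. Tests were two-sided with Benjamini-Hochberg adjustment over all genes tested. The log2(value + 1) scale understates changes of low genes.

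Alternatives were pseudocounts of 0.5 and 5, no filter or a filter at 10, other scalings, edgeR 4.0.16 and DESeq2 1.42.0 on recovered reads, a replicate block, and each library left out in turn. The members and lists were chosen with earlier results of these data known. All members are named; of other lists, up to 4 genes past the threshold with the smallest p; of genes like the members, the 5 with the highest correlation to their mean z-score among tested genes with a group mean of at least 50, without predicted genes. The scripts were tested on simulated data. Replicate libraries were not copies: the chi-square of their reads over its degrees of freedom was 4.64 to 10.6.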

Additional observations from a re-analysis of the deposited data

Results flagged for a closer look

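H2-K1 was marked because its change from E18.5 to P28 differed between the cell types by a test of the difference itself. The epithelial minus fibroblast difference in change was -2.35 (adjusted p = 0.000218, interaction term in limma), and the level in fibroblasts moved from 1.61 to 2.70 CPM at E18.5 to 39.4 to 47.2 CPM at P28. Psmb8 was marked by the same test, at -1.25 (adjusted p = 0.0465), with fibroblast levels of 18.5 to 29.5 CPM at E18.5 and 158 to 159 CPM at P28. Tapbp was marked at -1.14 (adjusted p = 0.0396), with fibroblast levels of 14.9 to 16.5 CPM at E18.5 and 36.2 to 45.7 CPM at P28 and an epithelial range of 28.4 to 43.0 CPM over all stages. The marks for Psmb8 and Tapbp each failed in 11 of 17 alternatives and leave-outs, CPM without TMM and deposited values among them. H2-K1 passed in all 17. The leukocyte marker sum changed over the same stages in both cell types, from 7.30 to 23.9 at E18.5 to 72.9 to 206 at P28 in fibroblasts and from 203 to 490 to 2473 to 2494 in the epithelium, and its part in these differences was not tested. With 2 libraries per group, the spread within a single group could not be examined for outlying libraries.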

How the results depend on the processing

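Of 153 counts of members called under settings that kept all libraries, 143 stayed within 1.5 times the count given above. The 10 others were as follows. In the epithelium, 0 of 8 passed from P2 to P7 with no filter, 1 from P7 to P28 with a pseudocount of 0.5 or no filter, and 2 when the course ended at P7. In fibroblasts, 1 passed across birth with a filter at 10 or with edgeR, 1 when the course ended at P7, and 1 from P28 to P56 with no filter. For the difference in change between cell types, 1 passed with CPM without TMM and 1 with deposited values; the cause was not tested. Ending the course at P7 turned the direction of 4 differences, to -0.53 for Psmb9 in the epithelium and to -0.43 for Psmb8, -0.32 for Tapbp and -0.063 for Tap2 in fibroblasts. Of 586 values of single members under settings that kept all libraries, 542 kept direction and side of the threshold, 35 lost the call and 5 gained it; of 388 with a library left out, 317 kept both, 67 lost the call and 4 gained it. With each library left out in turn, the number of members called ranged over 1 to 2, 0 to 2, 0 to 1 and 1 to 2 in the 4 epithelial steps and 4 to 5 from E18.5 to P28. In fibroblasts it ranged over 0 to 1, 0 to 0, 0 to 0 and 3 to 5 in the 4 steps up to P28, 4 to 6 from E18.5 to P28 and 1 to 1 from P28 to P56. Between cell types it ranged over 6 to 7 for the mean, 4 to 6, 3 to 4, 4 to 5, 4 to 4 and 2 to 3 at the 5 stages, and 1 to 2 for the difference in change. Leaving out the P56 library gives no value. Counts over all genes moved by over 1.5 times in 6 of 153 settings and 28 of 90 leave-outs: with no filter from 1071 to 578 (epithelium P0.5 to P2), 451 to 211 (P2 to P7), 1839 to 1113, 2025 to 1254 and 794 to 359 (the 3 fibroblast steps up to P7), and from 4020 to 2436 when the fibroblast course ended at P7. The leave-outs gave 589 to 1105, 95 to 775, 140 to 428 and 439 to 561 in the epithelial steps, 1866 to 2352 for the epithelial course, and 676 to 1376, 798 to 1128, 261 to 516 and 1557 to 2043 in the fibroblast steps. Without TMM, the calls for the difference in change went from 700 higher and 1318 lower to 1040 and 1066, with a shift of the median of 0.18, and with TMM those of the epithelium from P2 to P7 went from 188 and 263 to 270 and 246. Deviations of same-numbered libraries correlated between -0.06 and 0.10 over 45 pairs of groups, none over 0.1. These values show no strong shared effect of the replicate number. They cannot tell whether same-numbered libraries came from the same animals. A fit with the replicate block gave adjusted p = 0.0508 for B2m (P0.5 to P2) and 0.0523 for Tap1 (E18.5 to P28) in the epithelium and changed no other call of a member, with 5 members called from E18.5 to P28 in the epithelium. The low reads of Psmb9, Tap1 and Nlrc5, and of B2m in the epithelium at E18.5 and P0.5, limit what can be detected.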

Other observations

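Class I-like molecules outside the MHC could be tested between the cell types for 4 of 7 listed genes, and 3 of the 4 were higher in fibroblasts and 1 in the epithelium, where 62.4% of all genes passed. Fcgrt, the neonatal Fc receptor that pairs with B2m, ran from 0 to 1.38 CPM in the epithelium and from 3.02 to 11 CPM in fibroblasts, an epithelial minus fibroblast difference of -2.10 ± 0.20 (limma, adjusted p = 7.43e-09). Mr1, which presents microbial vitamin B metabolites, differed by -1.87 ± 0.22 (adjusted p = 1.32e-07), and Procr, the endothelial protein C receptor, by -1.72 ± 0.18 (adjusted p = 4.11e-08). Hfe, the B2m-binding regulator of iron uptake, was 0.98 ± 0.25 higher in the epithelium (adjusted p = 0.00202). From E18.5 to P28 in fibroblasts Hfe rose by 2.16 ± 0.58 (adjusted p = 0.00687) and Procr by 1.82 ± 0.47 (adjusted p = 0.00542).

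Receptors and kinases of interferon signalling differed between the cell types for 8 of 10 genes, 3 higher in the epithelium and 5 in fibroblasts, against the same 62.4% of all genes. The interferon gamma receptor chain Ifngr1 differed by -1.33 ± 0.12 and the kinase Jak1 by -1.25 ± 0.09, while Il10rb, a chain of the interferon lambda receptor, was 1.34 ± 0.09 higher in the epithelium and the type I receptor chain Ifnar2 differed by -1.50 ± 0.15. From P7 to P28 Ifngr1 rose by 1.95 ± 0.23 in fibroblasts (adjusted p = 5.01e-06).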
